A study of Rattus norvegicus with 24 samples.

Results

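The muscle acetylcholine receptor and its synaptic partners were followed through 30 days of resistance training in the tibialis anterior of adult male Wistar rats. The set was chosen by gene symbol and held 8 genes out of 15273 symbols in the transcript table, namely the receptor subunits Chrna1, Chrnb1, Chrnd, Chrne and Chrng, the receptor kinase Musk, the adhesion molecule Ncam1 and the transcription factor Runx1. Transcript values were summed per symbol. For 7 of the 8 genes the table gave values, and Chrng was not analysed here. Of these 7, 6 passed a filter on low values (at least 1 in at least 3 muscles), and Musk did not.

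In each animal an implanted pulse generator stimulated the left common peroneal nerve every day. The current was set to reach the neighbouring tibial nerve too, so that the dorsiflexors worked against partly active plantarflexors, a protocol the study calls SpillOver. Trained left muscles were collected after 2, 10, 20 or 30 days (n = 3 animals each, with RNA taken shortly after the last bout), and the unstimulated right muscle of the same 12 animals was the contralateral control. The 12 contralateral muscles formed 1 control group, so the 4 comparisons share their controls. These muscles belong to animals that exercised the other leg and carried an implant. The electrodes were placed by surgery at the nerves of the left leg alone. Effects of that surgery and of training therefore cannot be told apart here, and the time since surgery rose with the days of training. Muscles of sham-operated animals were not analysed here.

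The receptor at the adult neuromuscular junction is a pentamer of alpha1, beta1, delta and epsilon chains, and in embryonic or denervated muscle the gamma chain takes the place of epsilon. Nerve-derived agrin binds Lrp4, which activates the kinase Musk, and this signal gathers receptors under the nerve ending with the help of the scaffold protein rapsyn. Electrical activity holds down receptor transcription in the nuclei away from the synapse. After denervation that restraint is lost, and Runx1 and Ncam1, together with several of the subunit genes, are long-known markers of that state.

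Values are transcripts per million-type (TPM-type) units, per transcript length, rescaled to a common median across muscles. Every library has the same deposited total, so the depth of each library and the precision it gives cannot be read from these values. The authors report a minimum number of reads per sample and call their read depth moderate. The rescaling factors ran from 0.778 to 1.14, and the lowest was that of 1 contralateral muscle at 30 days. Leaving that muscle out changed no call of a member gene against control. Mitochondrially encoded transcripts took 24.9% to 28.5% of the summed values in the trained muscles at 2 days and 39.9% to 43.9% at 30 days. In the contralateral muscles they took 27.8% to 43.7%. The 43.7% was that of the 30-day muscle with the lowest factor, and the next highest contralateral value was 34.6%. The part of these transcripts in the results below was not tested. Muscle fibre markers summed to at least 46391 in every muscle and none of the 6 was at 0, so the tissue matched its label. In whole muscle, fewer cells of a type and less RNA per cell cannot be told apart.

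The 250 bases upstream of the start are shown for the 4 subunit genes with values, because these genes encode chains of 1 receptor and their calls differed. Against the pooled controls Chrnb1 and Chrnd were called higher with training while Chrna1 and Chrne were not, although with the animal as a block Chrne was called at 10 days and Chrnd at 10 days alone. They were taken from RefSeq on the GRCr8 assembly, which differs from the Rnor_6.0 build of the data, and are printed 5′ to 3′ along the gene's own strand. Of the 8 genes, 7 were in the promoter table. Capitals mark E-boxes, the letters CANNTG, the kind of site that myogenic factors such as myogenin and MyoD can bind. Chrnb1 lay on the minus strand at chr10:55015108-55015357, Chrnd on the plus strand at chr9:95310066-95310315, Chrna1 on the minus strand at chr3:78877354-78877603, and Chrne on the minus strand at chr10:55834155-55834404.
Chrnb1: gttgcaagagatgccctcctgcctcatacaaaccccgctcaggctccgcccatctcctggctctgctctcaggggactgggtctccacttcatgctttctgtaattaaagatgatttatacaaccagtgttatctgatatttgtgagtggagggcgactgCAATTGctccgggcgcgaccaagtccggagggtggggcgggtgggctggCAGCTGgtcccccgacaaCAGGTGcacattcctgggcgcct
Chrnd: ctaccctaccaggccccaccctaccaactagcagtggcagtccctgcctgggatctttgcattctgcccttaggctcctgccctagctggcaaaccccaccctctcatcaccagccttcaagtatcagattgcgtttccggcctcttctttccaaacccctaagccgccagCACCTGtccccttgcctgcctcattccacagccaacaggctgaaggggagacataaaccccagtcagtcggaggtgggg
Chrna1: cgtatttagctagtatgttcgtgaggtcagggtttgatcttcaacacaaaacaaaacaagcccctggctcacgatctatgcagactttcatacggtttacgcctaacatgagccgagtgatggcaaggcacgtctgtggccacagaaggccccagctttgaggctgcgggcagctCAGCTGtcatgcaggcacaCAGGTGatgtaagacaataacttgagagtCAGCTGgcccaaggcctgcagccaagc
Chrne: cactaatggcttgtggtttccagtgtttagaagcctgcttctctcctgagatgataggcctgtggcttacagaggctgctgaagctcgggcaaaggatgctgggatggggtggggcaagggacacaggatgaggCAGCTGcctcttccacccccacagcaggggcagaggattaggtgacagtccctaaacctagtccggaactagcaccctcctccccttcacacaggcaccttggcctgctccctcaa

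Chrna1 and Chrnb1 each held 3 E-boxes in this window, and Chrnd and Chrne each held 1. CANNTG reads the same on both strands. At least 1 copy was present in 65.5% of 33469 rat promoters of the same length and at least 3 copies in 11.5%, so a copy alone is common. The form CAGCTG, which is also counted as CANNTG, occurred 2 times in Chrna1, 1 time each in Chrnb1 and Chrne and 0 times in Chrnd, and 4007 of the 33469 promoters held it. The N-box, TTCCGG or CCGGAA on the other strand, was present 1 time each in Chrnd and Chrne and 0 times in Chrna1 and Chrnb1, against 12.6% of all promoters. These matches describe letters in a window and not occupied sites.

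In the contralateral muscles the subunit transcripts stood at unequal levels per length. Chrnb1, the beta1 chain, was the most abundant at 16.6 ± 2.34 (SD, n = 12). Chrnd, the delta chain, followed at 3.09 ± 0.810, Chrna1, the alpha1 chain, at 2.47 ± 1.13 and Chrne, the adult epsilon chain, at 2.24 ± 0.752. The lowest Chrnb1 value of 12.2 was above the highest value of any other subunit, 5.14. Ncam1 stood at 1.62 ± 0.632, and neighbours in this order from Chrnd to Ncam1 differed by less than their SDs. Runx1 stood at 0.639 ± 0.336 and Musk at 0.207 ± 0.0959. A limma F test over the 4 groups of contralateral muscles called 0 of the 6 tested genes at an adjusted p under 0.05, against 7 of 11196 genes. The count at an unadjusted p under 0.05 was 1197 of the 11196 genes and 1 of the 6, namely Chrna1, with an adjusted p = 0.408 in limma. It was 3.75 ± 1.36 in the contralateral muscles at 30 days against 1.56 ± 0.119 at 10 days (SD, n = 3 each).

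**Figure D1:**
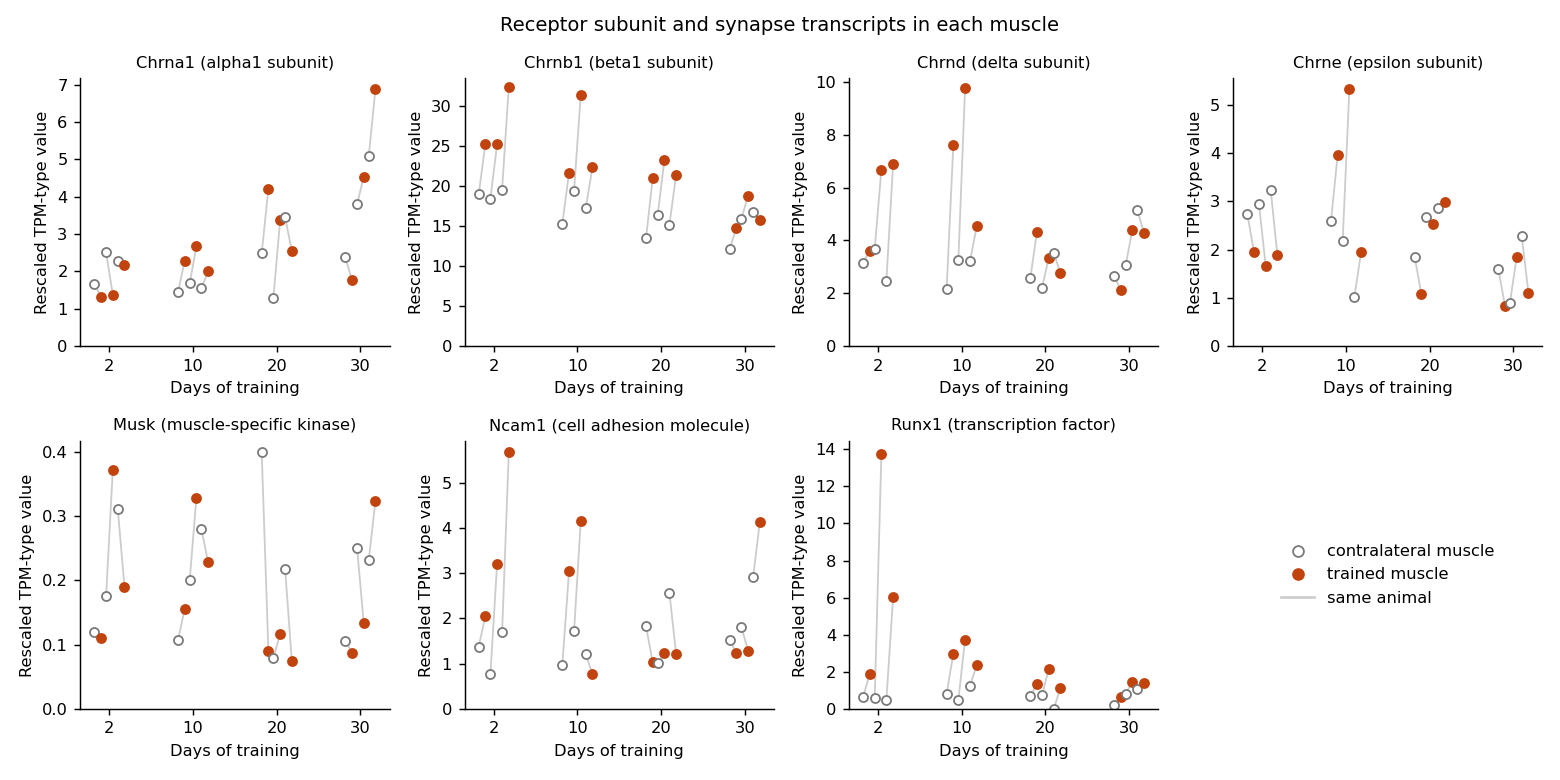
Rescaled TPM-type value (vertical axes, linear from 0) of the 7 genes with values in each of the 24 muscles, by days of training, with open circles for contralateral and filled circles for trained muscles and a line joining the muscles of 1 animal. Runx1 was higher in the trained muscle in 12 of 12 animals and Chrnb1 in 11 of 12, whereas Chrne was lower in 3 of 3 animals at 2 days and higher in 3 of 3 at 10 days.

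Trained muscles were higher than contralateral muscles in 4 of the 6 tested genes at 2 days (Runx1, Chrnb1, Chrnd and Ncam1), 3 after 10 days (Runx1, Chrnb1 and Chrnd), 1 at 20 days (Chrnb1) and 0 after 30 days. Across all 11196 genes tested, the share called higher was 15.4% at 2 days, 15.6% after 10 days, 11.7% at 20 days and 11.1% after 30 days, and the share called lower was 13.5%, 13.3%, 9.64% and 9.46%. Calls are from limma with Benjamini-Hochberg adjustment over all genes at 0.05. At 30 days 2 of the 6 genes had an unadjusted p under 0.05, Chrna1 and Chrne, in opposite directions. Of all 11196 genes 3770 did so, a share near that of the 6. No member gene was called lower at any time. Between trained groups, 5 of 36 contrasts of the 6 genes passed. The share of all genes called there was 1.93% for 10 against 2 days, 8.05% for 20 against 2 days, 15% for 30 against 2 days, 0.17% for 20 against 10 days, 3.94% for 30 against 10 days and 0.0357% for 30 against 20 days.

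**Figure D2:**
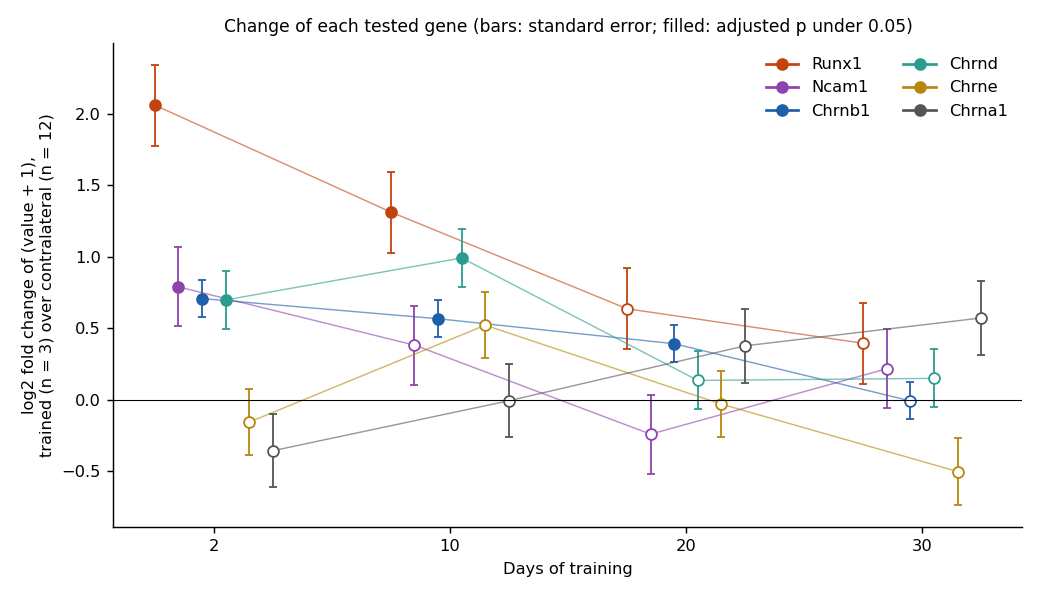
Fitted log2 fold change of (value + 1) in trained (n = 3 per time point) over contralateral muscles (n = 12) against days of training, with bars for the standard error and filled circles for an adjusted p under 0.05. Runx1 went from 2.06 at 2 days to 0.40 at 30 days and Chrnb1 from 0.71 to -0.01.

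The beta1 subunit rose at 2, 10 and 20 days. Chrnb1 ranged from 12.2 to 19.6 in the contralateral muscles with a median of 16.6. It was 25.3, 25.2 and 32.5 in the 3 trained muscles at 2 days, 21.7, 31.4 and 22.4 after 10 days, and 20.98, 23.3 and 21.4 at 20 days. All 9 of these muscles were above every contralateral muscle, while at 30 days the values of 14.7, 18.8 and 15.7 lay inside the contralateral range. A gene was above all contralateral muscles in all 3 trained muscles in 8.57% of cases at 2 days, 10% after 10 days and 8.23% at 20 days. Mean levels were 1.67, 1.52, 1.32 and 0.991 times the pooled control mean at 2, 10, 20 and 30 days. Over the contralateral mean of the same time they were 1.46, 1.45, 1.46 and 1.10 times, level from 2 to 20 days. That contralateral mean was 18.99 at 2 days and 14.95 at 30 days, a difference between times not called by the F test (adjusted p = 0.501). The log2 fold change over the pooled controls was 0.71 at 2 days (SE 0.13, adjusted p = 1.84e-04), 0.57 after 10 days (adjusted p = 0.00160) and 0.39 at 20 days (adjusted p = 0.0302). At 30 days it was -0.01 (adjusted p = 0.981).

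The Chrnb1 call at 20 days was lost when any 1 of the 3 trained muscles was left out (adjusted p = 0.0680, 0.135 and 0.0723 without replicates 1, 2 and 3) and with the values as deposited (0.0813). Chrnb1 was above its own contralateral muscle in 11 of 12 animals, and 13.5% of all genes were so in at least 11. Within animals the mean log2 difference was 0.51, 0.50, 0.52 and 0.13 at 2, 10, 20 and 30 days. The fit with the animal as a block kept the call at 20 days (adjusted p = 0.00768). Between trained groups, Chrnb1 was lower at 30 than at 2 days by a log2 difference of -0.71 (adjusted p = 0.00415) and lower at 30 than at 10 days by -0.57 (adjusted p = 0.0474). With the animal as a block these contrasts compare the changes within animals, and Chrnb1 then gave -0.38 (adjusted p = 0.225) and -0.37 (adjusted p = 0.399).

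The delta subunit rose at 2 and 10 days. Chrnd ranged from 2.18 to 5.14 in the contralateral muscles with a median of 3.11. The trained muscles held 3.60, 6.68 and 6.91 at 2 days and 7.63, 9.75 and 4.54 at 10 days. At each of these times 2 of the 3 trained muscles were above every contralateral muscle and the third was inside their range. At 20 days the values were 4.34, 3.32 and 2.76 and at 30 days 2.13, 4.40 and 4.28, all inside that range except the value of 2.13, which lay just below it. The log2 fold change was 0.70 at 2 days (SE 0.20, adjusted p = 0.0117), 0.99 after 10 days (SE 0.20, adjusted p = 6.11e-04), 0.14 at 20 days (adjusted p = 0.694) and 0.15 after 30 days (adjusted p = 0.654).

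The Chrnd call at 10 days stood with the animal as a block (log2 1.06, adjusted p = 0.00669), while the call at 2 days was lost under that pairing (0.68, adjusted p = 0.0554), with time-matched controls (0.0780) and without trained replicate 2 (0.121) or 3 (0.105). The trained muscle was above its own contralateral muscle in 3 of 3 animals at 2 days and after 10 days, in 2 of 3 at 20 days and in 1 of 3 after 30 days. Between trained groups, the Chrnd differences of 20 from 10 days (log2 -0.86), 30 from 10 days (-0.84) and 10 from 2 days (0.29) did not pass adjustment (adjusted p = 0.201, 0.0656 and 0.639).

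The epsilon subunit, which marks the adult receptor, was not called against the pooled controls at any time. Chrne ranged from 0.902 to 3.23 in the contralateral muscles with a median of 2.43. At 2 days the trained muscles were at 1.94, 1.66 and 1.88 against 2.74, 2.93 and 3.23 in the opposite muscles of the same animals, so the groups did not overlap and the trained side was lower in 3 of 3 animals. Such a separation downwards from the muscles of the same time was seen in 18.5% of all genes. At 10 days the trained muscles were at 3.96, 5.32 and 1.94 against 2.58, 2.19 and 1.02, higher in 3 of 3 animals although the groups overlapped. The log2 fold change over all controls was -0.16 at 2 days (adjusted p = 0.654), 0.52 after 10 days (SE 0.23, adjusted p = 0.0961), -0.03 at 20 days (adjusted p = 0.948) and -0.50 after 30 days (adjusted p = 0.131).

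With the animal as a block Chrne was called at 10 days (log2 0.67, adjusted p = 0.0299) and not at 2 days (-0.49, adjusted p = 0.0962). With the block and a pseudocount of 0.1, a setting chosen after seeing the data, it was not called at 10 days. Leaving out trained replicate 3 at 10 days gave 0.83 (adjusted p = 0.0185) in the unblocked fit. Between trained groups Chrne was lower at 30 than at 10 days by -1.02 (adjusted p = 0.0499), at the edge of the threshold, and with the block the value was -0.85 (adjusted p = 0.263). On the strand opposite to Chrne the annotation places LOC687707, at a mean level of 0.142 against 2.25 for Chrne. The library kit is directional, but whether strand was used in quantification is not given in the sources used here.

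The alpha1 subunit, which carries the main part of the acetylcholine binding site, was not called at any time. Chrna1 ranged from 1.29 to 5.09 in the contralateral muscles with a median of 2.33. In the trained muscles it was 1.32, 1.38 and 2.18 at 2 days, 2.28, 2.68 and 2.00 after 10 days, 4.21, 3.36 and 2.54 at 20 days and 1.76, 4.54 and 6.89 after 30 days. The means were 1.63, 2.32, 3.37 and 4.40 in order of time, but at 30 days the 3 muscles, from 1.76 to 6.89, differed widely. At 10 days all 3 trained muscles were above the 3 contralateral muscles of that time, at 1.45, 1.68 and 1.55, as in 16.7% of all genes. The log2 fold change was -0.36 at 2 days (adjusted p = 0.313), -0.01 after 10 days (0.991), 0.38 at 20 days (0.328) and 0.57 after 30 days (SE 0.26, adjusted p = 0.117). Without trained replicate 1, the lowest muscle, the value at 30 days was 0.99 (adjusted p = 0.0122). The contralateral muscles at 30 days were high as well, at 2.37, 3.79 and 5.09, and the mean difference within animals at that time was 0.10 on the log2 scale.

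The 4 subunit levels summed to 24.4 ± 3.23 in the contralateral muscles (SD, n = 12) and to 36.8 ± 5.89 at 2 days, 38.5 ± 9.49 after 10 days, 30.9 ± 1.43 at 20 days and 25.7 ± 5.44 after 30 days in the trained muscles (SD, n = 3 each). Chrnb1 made up 68.1% ± 5.32 of this sum in the contralateral muscles and 75.2% ± 3.25 in trained muscles at 2 days. Chrna1 took 10.1% ± 4.13 in the contralateral muscles, 4.36% ± 0.580 at 2 days and 16.3% ± 7.82 at 30 days. The Chrne share was 9.16% ± 2.77 in the contralateral muscles, 5.05% ± 0.898 at 2 days, 9.42% ± 2.72 after 10 days and 4.83% ± 1.22 at 30 days. The Chrnd share was 12.6% ± 2.32 in the contralateral muscles and 18.7% ± 3.53 at 10 days. These shares describe relative transcript levels per length and were not tested.

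Runx1, a transcription factor of the Runt family that is induced in muscle when innervation is lost, had the largest fitted fold change of the 6 tested genes at 2 and 10 days. In the contralateral muscles it ranged from 0.00134 to 1.25 with a median of 0.652. In the trained muscles it was 1.89, 13.8 and 6.04 at 2 days, 2.97, 3.74 and 2.37 after 10 days, 1.35, 2.14 and 1.11 at 20 days and 0.620, 1.45 and 1.38 after 30 days. All 6 trained muscles at 2 and 10 days were above every contralateral muscle, while at 20 and 30 days the groups overlapped. Such a separation upwards was seen in 8.57% of all genes at 2 days and in 10% at 10 days. The mean was 11.3 times the control mean at 2 days, 4.73 times after 10 days, 2.399 times at 20 days and 1.80 times after 30 days. The spread at 2 days was wide, since the highest muscle was 13.8 and the lowest 1.89.

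The log2 fold change of Runx1 was 2.06 at 2 days (SE 0.28, adjusted p = 6.98e-06), 1.31 after 10 days (SE 0.28, adjusted p = 0.00100), 0.64 at 20 days (adjusted p = 0.115) and 0.40 after 30 days (adjusted p = 0.351). Only 2 of the 12 contralateral muscles reached a value of 1, so Runx1 passed the filter through the trained muscles. Without the filter the calls were the same (adjusted p = 1.81e-05 at 2 days and 0.00177 at 10 days). Leaving out each trained muscle at 2 days gave 2.67, 1.49 and 2.02 in turn, all called. The trained muscle was above its own contralateral muscle in 12 of 12 animals, a pattern that 8.45% of all genes tested showed. Runx1 was lower at 20 than at 2 days by -1.42 (adjusted p = 0.0143) and at 30 than at 2 days by -1.66 (adjusted p = 0.00269). With the animal as a block the last 2 values were -1.29 (adjusted p = 0.150) and -1.75 (adjusted p = 0.0571). The call of 20 against 2 days was also lost without trained replicate 2 or 3 at 2 days. It was lost as well without trained replicate 3 at 20 days and with a pseudocount of 0.1.

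Ncam1, a cell adhesion molecule that is concentrated at the synapse in innervated fibres and also present on satellite cells and Schwann cells, rose at 2 days in the pooled comparison. It ranged from 0.765 to 2.91 in the contralateral muscles with a median of 1.61, and was 2.05, 3.20 and 5.68 in the trained muscles at 2 days. Of these, 2 were above every contralateral muscle. At 10 days the trained muscles held 3.04, 4.15 and 0.763, the last of these just below every contralateral muscle. At 20 days they held 1.04, 1.23 and 1.22 and at 30 days 1.23, 1.28 and 4.12. The log2 fold change was 0.79 at 2 days (SE 0.28, adjusted p = 0.0341), 0.38 after 10 days (adjusted p = 0.327), -0.24 at 20 days (0.599) and 0.22 after 30 days (0.630). The Ncam1 call at 2 days was lost with time-matched controls (0.97, adjusted p = 0.0585), with a pseudocount of 0.1 (1.10, adjusted p = 0.0531) and without trained replicate 2 (0.83, 0.111) or 3 (0.49, 0.289). The Ncam1 value came from 3 annotated transcripts with mean levels of 1.04, 0.520 and 0.455 over all muscles.

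Musk, the receptor tyrosine kinase that builds the synapse, stayed between 0.0745 and 0.400 in all 24 muscles. Its mean was 0.207 ± 0.0959 in the contralateral muscles (n = 12), 0.224 ± 0.133 at 2 days, 0.237 ± 0.0872 after 10 days, 0.0937 ± 0.0210 at 20 days and 0.181 ± 0.125 after 30 days (SD, n = 3 each). The groups overlapped at every time. At 20 days the trained values were 0.0904, 0.116 and 0.0745, the last of these below the lowest contralateral value of 0.0794.

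Of the 8 other genes tested in the agrin and Musk pathway, 3 were called higher at 2 days, 2 after 10 days and 1 each at 20 and 30 days, and 1 was called lower, at 10 days. Over all genes tested, 15.4%, 15.6%, 11.7% and 11.1% were called higher at these times, so the single call at 20 and at 30 days is near that share. Over the 8 genes the median log2 fold change came to 0.16, 0.12, 0.08 and -0.06 at the 4 times, against medians between -0.03 and -0.01 over all genes. Lrp4, the agrin receptor, was higher at all 4 times, from 1.497 ± 0.202 in the contralateral muscles to means of 2.07, 2.64, 2.27 and 2.20 (log2 0.29, 0.54, 0.38 and 0.36, adjusted p = 0.0349, 2.24e-04, 0.00727 and 0.0124). Rapsn, which encodes rapsyn, rose at 2 days from 9.18 ± 1.85 to 13.04 (log2 0.48, adjusted p = 0.0110) and Agrn at 10 days from 1.90 ± 0.376 to 3.11 (0.48, adjusted p = 0.00698). With the animal as a block the number of calls in this pathway was 0, 1, 0 and 1, with Lrp4 remaining at 10 and 30 days.

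In the cleft and basal lamina list, Ache and its anchor were lower. Ache, the acetylcholinesterase that ends transmission, fell from 28.3 ± 4.15 in the contralateral muscles to means of 16.7, 14.2, 14.9 and 19.1 (log2 -0.78, -0.99, -0.88 and -0.54, adjusted p = 0.00224, 2.06e-04, 9.93e-04 and 0.0386). Prima1, the membrane anchor of that enzyme, fell from 7.41 ± 3.50 to 1.33, 0.717, 0.570 and 0.642 (log2 -1.92, -2.22, -2.32 and -2.27, highest adjusted p = 6.45e-05). With the animal as a block the fall of Ache at 30 days was not called (-0.34, adjusted p = 0.183). Colq and Bche, the collagen tail of the enzyme and a related esterase, had control means of 0.228 and 0.0934 and were not tested. Over all genes tested, the share called lower was 13.5%, 13.3%, 9.64% and 9.46%, and the share called higher 15.4%, 15.6%, 11.7% and 11.1%. Of the 7 genes tested in this list, 2 were called lower at each time, and 0, 4, 3 and 3 were called higher at 2, 10, 20 and 30 days. Those called higher were the laminin chain Lama4 (log2 1.03 at 10 days) and the nidogens Nid1 (1.02) and Nid2 (1.29), called at 10, 20 and 30 days, and Lama5 at 10 days. With the block 3 of the 7 were called higher at 2 days as well.

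**Figure D3:**
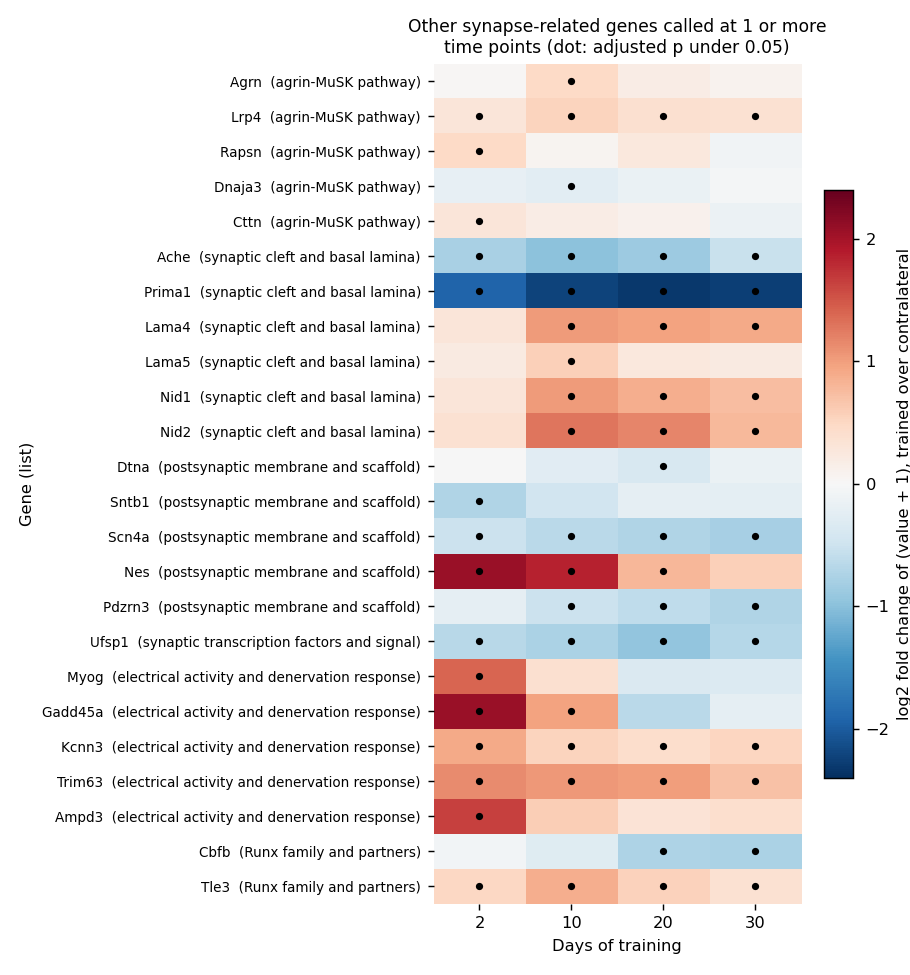
Fitted log2 fold change of (value + 1), trained over contralateral muscles, at each time for the genes of the synapse-related lists called at 1 or more times, as colour (red higher, blue lower) with a dot for an adjusted p under 0.05. Prima1 was the deepest fall, at -2.32 at 20 days, and Nes and Gadd45a the steepest rises, at 2.07 each at 2 days.

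Among 8 tested genes of the postsynaptic membrane and scaffold, Nes, an intermediate filament protein found under the endplate and in regenerating fibres, rose from 7.19 ± 1.13 to 39.0 at 2 days, 31.6 after 10 days and 13.2 at 20 days (log2 2.07, 1.84 and 0.80, adjusted p = 3.93e-06, 1.53e-05 and 0.0372). In the blocked fit the Nes value at 20 days was 0.74 (adjusted p = 0.0947). Scn4a, the muscle voltage-gated sodium channel, was lower at all 4 times (log2 -0.52, -0.64, -0.73 and -0.80, highest adjusted p = 0.00489). Pdzrn3, a ubiquitin ligase that acts on Musk, was lower from 10 days on (log2 -0.52, -0.60 and -0.72, highest adjusted p = 0.00193). Over all genes tested, 15.4%, 15.6%, 11.7% and 11.1% were called higher and 13.5%, 13.3%, 9.64% and 9.46% lower at the 4 times. In all 1, 1, 1 and 0 genes of this list were called higher and 2, 2, 3 and 2 lower, so a single call higher is near the share over all genes. The splits with the values as deposited were 1, 1, 1 and 0 higher and 0, 1, 2 and 4 lower. Of the 7 genes tested in the list of synaptic transcription factors and signals, 1 was called against the pooled controls, Ufsp1, which was lower at all 4 times (log2 -0.66, -0.77, -0.95 and -0.68, highest adjusted p = 0.0366). As a count, 1 of 7 is near the share of all genes called lower. In the blocked fit Ufsp1 was called at 2 and 20 days, and the ETS factors Etv4 at 2 days (-0.56, adjusted p = 0.0313, against -0.10 and 0.780 without the block) and Gabpa at 30 days (-0.36, adjusted p = 0.0327, against -0.22 and 0.115) were also called lower.

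Of 10 tested genes known to respond to denervation or to a loss of electrical activity, 5, 3, 2 and 2 were called higher at the 4 times and 0 were called lower, against 15.4%, 15.6%, 11.7% and 11.1% of all genes called higher. The list was not split by the direction of that response, so these counts do not measure likeness to it. With the values as deposited the counts were 5, 4, 2 and 0. Myog, the myogenic factor that drives subunit genes, rose at 2 days from 6.63 ± 1.95 to 22.1 (log2 1.41, adjusted p = 5.18e-04) and was 8.96 at 10 days (0.39, adjusted p = 0.330). Gadd45a, a stress-response gene, rose from 13.1 ± 5.47 to 62.9 at 2 days (2.07, adjusted p = 8.49e-05) and to 24.99 at 10 days (0.97, adjusted p = 0.0401, or 0.382 with the animal as a block). Kcnn3, a small-conductance potassium channel, and Trim63, a ubiquitin ligase of muscle atrophy, were called higher at all 4 times, at 0.91 and 1.13 at 2 days. In contrast Myod1 (log2 -0.10 at 2 days), Hdac4 (0.18) and Fbxo32 (-0.83, adjusted p = 0.159) were not called at any time. Ampd3, AMP deaminase, rose at 2 days (1.65, adjusted p = 5.29e-06). With the block the counts were 5, 2, 2 and 1 higher.

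Around Runx1 itself, 3 partners or family members were tested. Tle3, a corepressor that Runt factors recruit, was called higher at all 4 times (log2 0.50, 0.88, 0.55 and 0.37), and Cbfb, the shared DNA-binding partner of Runt factors, was called lower at 20 and 30 days (-0.74 and -0.77, highest adjusted p = 5.20e-05), falling from 18.9 ± 2.58 to 10.9 and 10.6. Cbfb was -0.07 at 2 days, when Runx1 was highest. Among relatives of Ncam1 only the polysialyltransferase St8sia4 passed the filter, and it was not called. Of 11 neuronal-type receptor subunits 2 had values, Chrna4 and Chrnb2, both with control means under 0.1 and neither tested.

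Markers of other cell types moved with training as well. For the marker counts here and in the next paragraph, the share of all genes called higher was 15.4%, 15.6%, 11.7% and 11.1%. The share called lower was 13.5%, 13.3%, 9.64% and 9.46%. Of 6 tested macrophage and leukocyte markers, 5, 5, 6 and 6 were called higher at 2, 10, 20 and 30 days, and their sum, 6.74 to 16.9 in the contralateral muscles, was 21.3 to 50.5, 22.7 to 51.2, 30.1 to 36.5 and 27.5 to 37.1 in the trained muscles. Runx1 is also a gene of blood cells. In the 3 trained muscles at 2 days the macrophage and leukocyte sums were 21.3, 50.5 and 32.9, in the same order as Runx1 in those muscles (1.89, 13.8 and 6.04). At 30 days the sums were 27.5, 37.1 and 32.7 and the Runx1 values 0.620, 1.45 and 1.38, again in the same order. At 10 days the sums were 51.2, 43.0 and 22.7 and the Runx1 values 2.97, 3.74 and 2.37. At 20 days the sums were 30.1, 30.3 and 36.5 and the Runx1 values 1.35, 2.14 and 1.11. The orders differed at 10 and 20 days. Of 5 fibroblast markers, 4, 5, 5 and 5 were called higher, with sums of 74.6 to 253.1 in contralateral and 300.9 to 981.8 in trained muscles.

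For Ncam1 the cells of interest are satellite and Schwann cells. Of 3 tested satellite cell markers, 2 were called higher at 2 and 10 days (Myf5 and Vcam1) and 1 at 20 and 30 days, and their list summed to 7.28 to 9.03 in trained muscles at 2 days against 3.59 to 8.82 in the contralateral muscles. Of 6 tested Schwann cell markers, 1 was called higher at 2 days (Pmp22), and the sum was 19.03 to 41.8 in trained muscles at 2 days against 12.6 to 33.9. Of 4 tested endothelial markers, 1 was called lower at 2 days and 1 higher at each later time, and the 1 motor axon marker tested was not called. None of the markers with values was at 0 in all muscles of a group. The part of these cell types in the changes of Runx1, Ncam1 and the subunit genes was not tested.

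**Figure D4:**
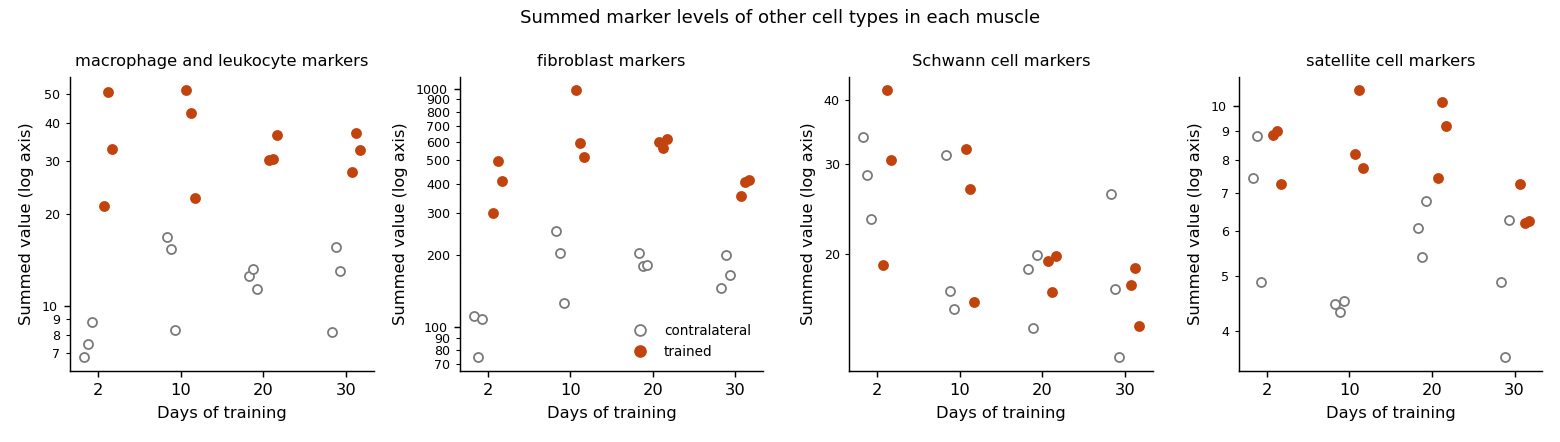
Summed rescaled value (log axes) of the markers of macrophages and leukocytes, fibroblasts, Schwann cells and satellite cells in each muscle, by days of training, with open circles for contralateral and filled circles for trained muscles. The macrophage and leukocyte sums of trained muscles were 21.3 or more and those of contralateral muscles 16.9 or less, while the Schwann cell sums overlapped at every time.

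For 5 of the 6 tested genes, those genes whose levels followed them most closely over the 24 muscles were named among 5865 genes with a mean of at least 5, as a description in which the points share training, animal and library. Runx1 was closest to Pvr, Rnh1 and Hspb8 (Pearson r = 0.955, 0.950 and 0.948). Chrnb1 was closest to Jund, Abra and Ddr1 (0.857, 0.855 and 0.850) and Chrnd to Pomgnt1, Cd151 and Slain2 (0.886, 0.873 and 0.864). Ncam1 was closest to Tmx4, Arhgap35 and Myh3 (0.809, 0.778 and 0.742), the last of which encodes embryonic myosin heavy chain. Likeness was lower for Chrne, with Phf1, Sfswap and Irf3 (0.729, 0.655 and 0.634).

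On Rnor_6.0, the build of the data, Chrnb1 lies on the minus strand of chromosome 10 at chr10:56390671-56403189 and Chrne on the same strand at chr10:57238946-57243436. Chrnd lies at chr9:94286550-94294969 on the plus strand, Chrna1 at chr3:60445666-60460725 on the minus strand and Runx1 at chr11:32769165-32858831 on the minus strand. Musk lies at chr5:75392790-75498695 on the plus strand, and the transcript of Ncam1 with the highest mean level spans chr8:53839683-53901359 on the minus strand. All are annotated as protein-coding, and the values cover whole transcripts, exons and untranslated regions together.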

How the data were processed

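The members and gene lists were chosen with earlier results of these data known. Poly-A RNA of 24 muscles was sequenced as paired reads on a NextSeq550. The authors aligned the reads with STAR in Partek to rn6 and quantified Ensembl transcripts. The authors deposited values for 20027 transcripts that were treated here as TPM-type. Each sample sums to 634431, and the submitters' processing notes also name DESeq2, whose normalization does not give equal totals, so the exact scaling of the deposited TPM-type values is unknown. Their gene-level table, a signal the authors scaled per sample, held 1 member (Chrnb1) and served as an alternative. A file of the authors' comparisons, with p-values and fold changes, was not used.

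Values were divided by median-of-ratios factors (16230 transcripts above 0 in all samples), summed per symbol and fitted as log2(value + 1) with limma 3.58.1 in R 4.3.3, in 5 groups. Fold changes on this scale understate changes of low genes. The filter left 11196 genes, and p-values are two-sided. The fit was tested on simulated data. Right and left muscles with 1 number come from the same animal by the labels. Their deviations from the group means correlated with a median r of 0.139 (range -0.0767 to 0.306), against -0.000262 for different animals. Replicates are separate animals, and 0 of 276 pairs of libraries were identical. The design text names 4 animals per time point, of which 3 are in the samples used here. All members are named, with list genes called at 2 or more times and up to 4 others per list. Python 3.11.15, pandas 2.3.3 and matplotlib 3.10.9 made tables and plots. The genes most like Chrna1 and some marker calls are not reported here.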

Additional observations from a re-analysis of the deposited data

Results flagged for a closer look

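In 5 contrasts a member gene differed between trained groups of different duration, by the limma test of the difference itself with adjustment over all genes. Chrnb1 was lower at 30 than at 2 days by a log2 difference of -0.71 and lower at 30 than at 10 days by -0.57. Chrne was lower at 30 than at 10 days by -1.02. Runx1 was lower at 20 than at 2 days by -1.42 and lower at 30 than at 2 days by -1.66. The Runx1 call of 20 against 2 days was lost without trained replicate 2 or 3 at 2 days. Both calls of 30 against 10 days were lost when any 1 of the 3 trained muscles at 30 days was left out. These 5 contrasts compare trained muscles of different animals. When the change against the contralateral muscles of the same time was compared instead, 0 of the 36 contrasts of the 6 genes passed, with the animal as a block or without it. At an unadjusted p under 0.05, 15 passed with the block and 8 without it. Per contrast, 521 to 2174 of all 11196 genes passed at that level with the block and 342 to 1864 without it. The lowest numbers were those of 30 against 20 days and the highest those of 30 against 2 days.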

How the results depend on the processing

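No member gene changed direction past the threshold under any alternative. The number of genes called at 2 days was 4 and went to 2 with time-matched controls and with an adjusted p under 0.01, and ranged from 2 to 4 when a trained replicate was left out. The 3 calls at 10 days ranged from 3 to 5 when a replicate was left out, with Chrne and Ncam1 added without replicate 3. The 1 call at 20 days went to 0 with the values as deposited, with an adjusted p under 0.01 and without each replicate, and to 2 with the animal block and a pseudocount of 0.1, chosen after seeing the data, under which Runx1 lost its call at 10 days (1.80, adjusted p = 0.0531). In the gene-level table Chrnb1 was not called at 20 days (log2 0.27, adjusted p = 0.220) and was called lower at 30 days (-0.34, adjusted p = 0.0369), where the median of all genes in that table was -0.35. The 0 calls at 30 days ranged from 0 to 1. The 5 contrasts between trained times went to 9 as deposited, 2 with a pseudocount of 0.1, 3 with the highest transcript per gene, 2 with an adjusted p under 0.01 and 0 with time-matched controls or the animal block at either pseudocount, and ranged from 3 to 11 without a replicate.

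Pairing by animal, as a block in the fit, gave 3, 4, 1 and 0 calls at the 4 times, losing Chrnd at 2 days and adding Chrne at 10 days, and changed no other call of a member against control. The values as deposited shifted the median of all genes by -0.18 at 30 days, and the split over all genes there was 647 higher and 2590 lower, against 1245 and 1059, while at 2 days it was 2132 and 731 against 1728 and 1507. The planned share of gamma in gamma plus epsilon was not run because Chrng was not analysed here. The depth of each library cannot be read from the deposited values, so low values such as those of Musk are given without a counting error.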
